A study of Mus musculus with 6 samples.

Results

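Gk, G6pd2 and Hprt are 3 genes of intermediary metabolism whose probes carry a RefSeq accession on a mouse lncRNA array. Their probes were found by name, each printed as 20 spots, and they are 3 of the 15 genes that the files identify by such an accession and 3 of the 60915 scaled probes. They were chosen by the CoCl2-control difference of their signals, having passed the threshold of a fit over all probes on these same 6 arrays. Their differences between the groups are therefore described here and not tested. The cells were C2C12, a mouse myoblast line that fuses into myotubes, kept in medium with 10% fetal bovine serum, switched to 2% horse serum to differentiate, and labelled as myotubes in both groups. The 3 control cultures had no treatment. The 3 other cultures were exposed to CoCl2, cobalt chloride, at 200 uM during the last 48 h of culture. Cobalt ions are a common chemical mimic of hypoxia because they stabilise hypoxia-inducible factors. The design text calls the cultures independent experiments of a single cell line, and the study's title asks about CoCl2 toxicity and lncRNA levels.

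Glycerol kinase, encoded by Gk, phosphorylates glycerol to glycerol 3-phosphate and so feeds free glycerol into lipid synthesis or glycolysis. Glucose-6-phosphate dehydrogenase catalyses the entry step of the pentose phosphate pathway, which supplies NADPH and ribose phosphate. G6pd2 is an intronless copy of its X-linked gene, G6pdx, made by retrotransposition. Hypoxanthine-guanine phosphoribosyltransferase, encoded by Hprt, salvages hypoxanthine and guanine into purine nucleotides, and Hprt is widely used as a reference gene for normalising transcript levels. Hypoxia-inducible factors bind DNA at a short core, ACGTG or GCGTG, near the genes they control.

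Because CoCl2 acts on that pathway, the 250 bases before each annotated start are shown, from the RefSeq promoter table (GRCm38.p6, in which all 3 symbols matched), with any ACGTG or GCGTG on either strand in capitals. The Gk window is chrX:85776820-85777069 on the minus strand, the G6pd2 window chr5:61808593-61808842 on the plus strand and the Hprt window chrX:52987828-52988077 on the plus strand.
Gk: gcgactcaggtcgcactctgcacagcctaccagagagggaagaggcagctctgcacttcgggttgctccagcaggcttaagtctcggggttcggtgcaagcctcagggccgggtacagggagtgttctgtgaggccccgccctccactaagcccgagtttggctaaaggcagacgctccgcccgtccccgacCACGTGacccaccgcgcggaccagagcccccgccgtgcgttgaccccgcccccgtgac
G6pd2: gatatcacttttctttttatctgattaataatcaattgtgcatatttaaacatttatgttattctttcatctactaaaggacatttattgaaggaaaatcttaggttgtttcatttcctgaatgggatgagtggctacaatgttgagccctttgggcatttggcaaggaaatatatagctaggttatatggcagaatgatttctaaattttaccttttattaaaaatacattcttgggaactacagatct
Hprt: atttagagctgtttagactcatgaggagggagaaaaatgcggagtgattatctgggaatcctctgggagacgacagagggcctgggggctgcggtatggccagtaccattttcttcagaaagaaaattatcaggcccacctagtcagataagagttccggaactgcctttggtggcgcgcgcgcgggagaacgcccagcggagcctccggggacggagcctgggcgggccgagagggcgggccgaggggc
The Gk window holds ACGTG on both strands, overlapping in the palindrome CACGTG that begins 58 bases before the start. The G6pd2 and Hprt windows hold neither core. The window of G6pdx, the parent of G6pd2, holds GCGTG, beginning 43 bases before its start. Of the 32851 windows of 250 bases in the table, 16.6% hold ACGTG, 28.2% hold GCGTG and 38.6% hold at least 1 of them. A match is a run of letters and not a measured binding site. The windows also differ in base composition, with 67.2% G and C for Gk, 59.6% for Hprt and 30% for G6pd2, against a median of 52.4% over all windows.

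The copy and its parent share sequence where their windows meet the transcript. In windows that run 50 bases past the start, a stretch of 35 bases matched between G6pd2 and G6pdx with 1 mismatch. It covers bases 16 to 50 of the G6pdx transcript, where the window ends, and in G6pd2 it begins 10 bases before the annotated start. The genes were compared only over these windows. The sequence of the G6pd2 probe was not analysed here, so whether it reads G6pd2, G6pdx or both is uncertain.

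On the arrays, Gk and Hprt were higher and G6pd2 was lower after CoCl2. Levels below are mean log2 spot signals minus the array's 75th percentile over its 60915 probes, so a level of 0 lies at that percentile. In that scaling Gk was 2.01-fold higher, Hprt 1.81-fold higher and G6pd2 2.18-fold lower, and for each gene the 2 groups of arrays were apart. Such a separation was common on these arrays, at 32.1% of tested probes (those with a value on all 6 arrays) with every CoCl2 array above every control and 27.5% with every CoCl2 array below. All 3 genes passed an adjusted p of 0.05 in limma, as the choice of members required. Of the 34839 probes tested, 47.6% passed, 25.2% as higher and 22.4% as lower. In RNA of whole cultures, fewer cells of a type and less RNA per cell cannot be told apart.

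**Figure D1:**
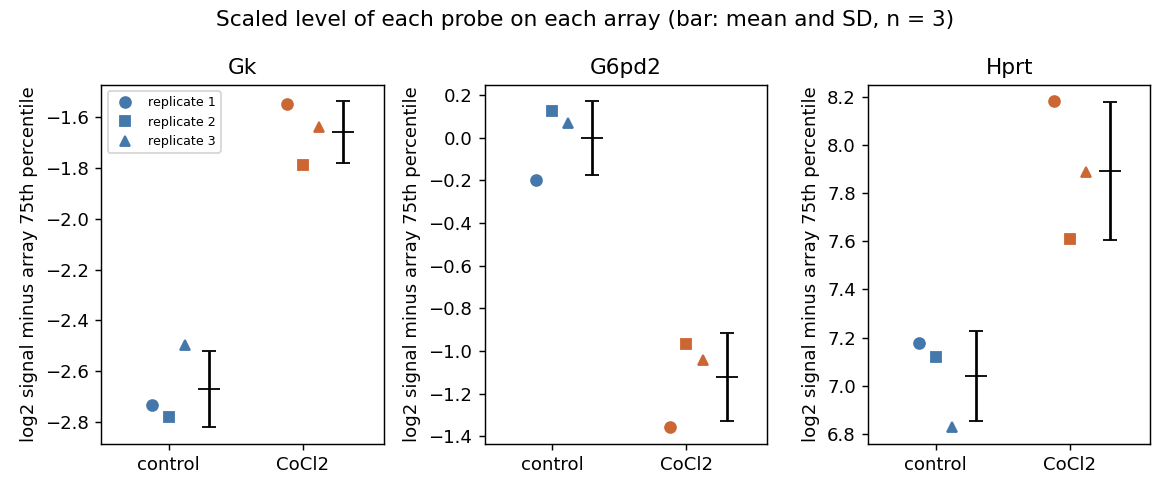
Level of the Gk, G6pd2 and Hprt probes (log2 signal minus the array's 75th percentile) on each of 3 control (blue) and 3 CoCl2 (orange) arrays, with the replicate number as the symbol in both groups and the mean and SD beside the points. The CoCl2 arrays lie above all controls for Gk and Hprt and below all controls for G6pd2.

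Gk, the glycerol kinase gene, had levels of -2.73, -2.78 and -2.50 in controls 1 to 3 and of -1.55, -1.79 and -1.64 in CoCl2 replicates 1 to 3. Control 3 was the highest control and CoCl2 replicate 1 the highest array, and the groups were 0.71 apart at their closest. The control mean was -2.67 ± 0.15 (SD, n = 3) and the CoCl2 mean -1.66 ± 0.12 (SD, n = 3). The log2 fold change was 1.01 (SE 0.15).

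The Gk probe was dim. Its unscaled mean signals were 64.9, 55.6 and 99.7 in the controls and 116, 131 and 133 after CoCl2. These signals, from which background is already subtracted, are 2.59 to 7.39 times the local background. Of its 120 spots on the 6 arrays, 119 were well above background. Before scaling, the lowest CoCl2 array stood 1.17-fold above control 3, the closest control, so the separation of the groups was narrow in the unscaled signal. The local background around the Gk spots was 21, 21.5 and 22 in the controls and 20.5, 20 and 18 after CoCl2. Without background subtraction, from median spot signals, the Gk log2 fold change was 0.78 (SE 0.13). With a normexp correction, which adds an offset and pulls dim ratios toward 0, it was 0.61 (SE 0.12).

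G6pd2, the glucose-6-phosphate dehydrogenase copy, had levels of -0.20, 0.12 and 0.07 in controls 1 to 3 and of -1.36, -0.97 and -1.04 in CoCl2 replicates 1 to 3. CoCl2 replicate 1 was the lowest array, and the groups were 0.77 apart at their closest. The control mean was 0.00 ± 0.17 (SD, n = 3) and the CoCl2 mean -1.12 ± 0.21 (SD, n = 3). The log2 fold change was -1.12 (SE 0.17).

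The fall of the G6pd2 probe signal was visible before any scaling. The unscaled mean signals were 376, 416 and 591 in the controls and 133, 233 and 201 after CoCl2, and the lowest control stood 1.62-fold above the highest CoCl2 array. All 120 spots were well above background. Of its 8 spots with an outlier flag, 7 were on CoCl2 arrays, and with those spots kept the log2 fold change was -1.08 (SE 0.17).

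Hprt, the purine salvage gene, had levels of 7.18, 7.12 and 6.83 in controls 1 to 3 and of 8.18, 7.61 and 7.89 in CoCl2 replicates 1 to 3. Control 3 was the lowest array and CoCl2 replicate 1 the highest, and the groups were 0.43 apart at their closest, less than the range of 0.57 among the CoCl2 arrays. The control mean was 7.04 ± 0.19 (SD, n = 3) and the CoCl2 mean 7.89 ± 0.29 (SD, n = 3). The log2 fold change was 0.85 (SE 0.19).

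The Hprt probe was bright without reaching saturation. Its unscaled mean signals were 62393, 53013 and 63881 in the controls and 98855, 88718 and 98393 after CoCl2, and no spot was marked as saturated. The lowest CoCl2 array stood 1.39-fold above the highest control in that unscaled signal. Of its 7 spots with an outlier flag, 6 were on control arrays, and with them kept the log2 fold change was 0.86 (SE 0.19).

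**Figure D2:**
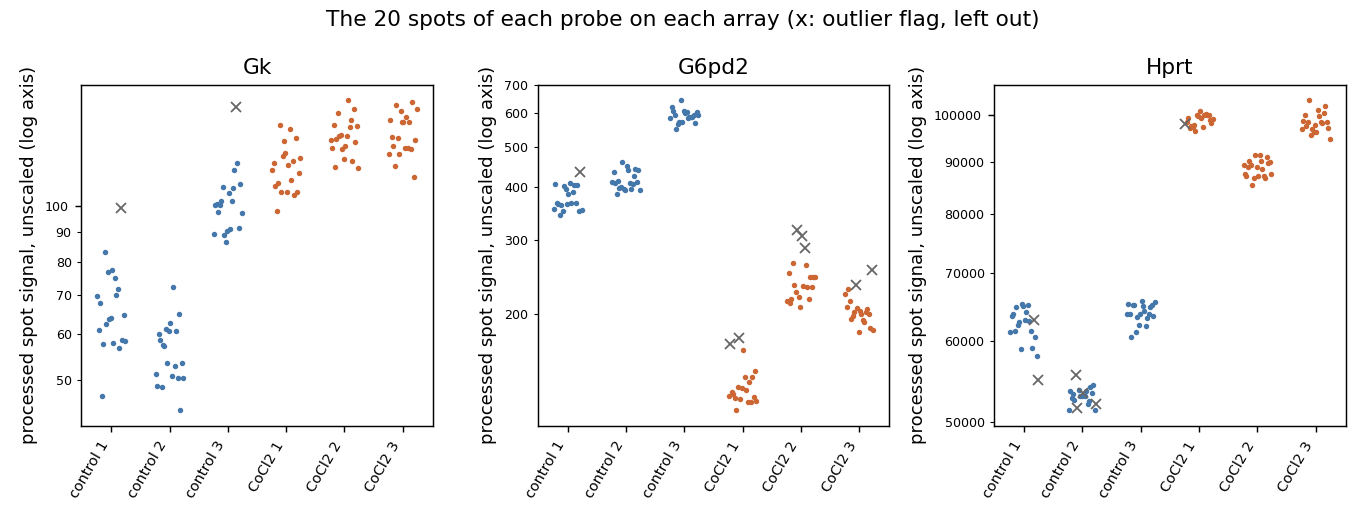
Processed signal, before any scaling between arrays, of the 20 spots of each probe on each array (log axis; blue control, orange CoCl2; crosses are spots with an outlier flag, left out). Spots of an array lie close together, while control 3 stands above controls 1 and 2 for Gk and G6pd2.

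The repeated spots show how much of the spread lay between cultures and arrays. The SD over the spots of an array ranged from 0.11 to 0.20 for Gk, from 0.052 to 0.11 for G6pd2 and from 0.019 to 0.052 for Hprt, on the log2 scale. The pooled SD between arrays of a group was 0.14 for Gk, 0.19 for G6pd2 and 0.24 for Hprt. It was 4.55 times the median standard error of an array's spot mean for Gk, 9.41 times for G6pd2 and 36.4 times for Hprt. The error of the array means thus came mainly from differences between arrays, and the 20 spots, which share an RNA sample, are not replicates of the treatment. Those differences depended on the scaling. The CoCl2 arrays for Hprt, at 8.18, 7.61 and 7.89 scaled, were closer together unscaled, at 16.59, 16.44 and 16.59. The controls for Gk, at -2.73, -2.78 and -2.50 scaled, were further apart unscaled, at 6.02, 5.80 and 6.64. After scaling, none of the 60 Gk spots used on CoCl2 arrays was as low as the highest of 58 control spots. Before scaling the Gk spots did cross, with a spot at 97.8 on CoCl2 replicate 1 and a used spot at 118.7 on control 3. After scaling, no used spot of G6pd2 or Hprt crossed between the groups either. For these, 53 and 59 spots were used on CoCl2 arrays and 59 and 54 on controls. The genes were chosen by this same difference, so the spots add no support for it.

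CoCl2 replicate 1 lay farthest from the controls, and CoCl2 replicate 2 nearest to them, for each of the 3 genes in the 75th-percentile scaling. Replicate 1 also had the lowest 75th percentile of the 6 arrays, a signal of 340 against 382 to 563 on the others, and the lowest share of probes well above background, 50.9% against 53.7% to 57.6%. Before scaling, replicate 1 was the nearest of the CoCl2 arrays to the controls for Gk, at a signal of 116 against 131 and 133. It was still the farthest for G6pd2, at 133 against 233 and 201, and for Hprt, at 98855 against 88718 and 98393, the last by less than the spread of its spots. Without that array the log2 fold changes were 0.95 for Gk, -1.004 for G6pd2 and 0.71 for Hprt.

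By the scan records, controls 1 and 2 were scanned on another day and each in a scan of its own, while control 3 shared a scan, taken here as a slide, with all 3 CoCl2 arrays. Control 3 had the highest 75th percentile of the arrays, a signal of 563, so comparisons with it alone depend on the scaling. In the 75th-percentile scaling, control 3 differed from the mean of controls 1 and 2 by 0.26 for Gk, by 0.11 for G6pd2 and by -0.32 for Hprt. Within the shared slide and in that scaling, the mean of the CoCl2 arrays minus control 3 was 0.84 for Gk, -1.19 for G6pd2 and 1.07 for Hprt. Against controls 1 and 2 alone it was 1.095, -1.09 and 0.75 in the same order. The directions were thus the same against either set of controls, which share the CoCl2 arrays. In that scaling, control 3 lay closer to the CoCl2 arrays than the mean of controls 1 and 2 for Gk, farther for Hprt and slightly farther for G6pd2. This order depended on the scaling. In unscaled log2 signal, Hprt in control 3 was closer to the CoCl2 arrays, at 15.96 against 15.93 and 15.69 in controls 1 and 2. Unscaled Gk in control 3 was closer too, at 6.64 against 6.02 and 5.80. Unscaled G6pd2 in control 3 was clearly farther, at 9.21 against 8.55 and 8.70. Under quantile normalization, Hprt in control 3 lay between controls 1 and 2. In limma with slide as a block, which compares with control 3 alone, 1 of the 3 genes passed, G6pd2, where 15.6% of tested probes did. With scan day as a block, which gives the same fold changes with 3 residual degrees of freedom in place of 2, all 3 genes passed, where 21.6% of tested probes did.

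Differences between the probes within an array are the same under every scaling that subtracts a single value per array. In these, Gk and Hprt both separated from G6pd2 after CoCl2, while Gk minus Hprt overlapped between the groups. Relative to the control mean, Gk minus G6pd2 was 0.13, -0.23 and 0.10 in the controls and 2.48, 1.84 and 2.07 after CoCl2, a change of 2.13 (SE 0.22) or 4.38-fold. Hprt minus G6pd2 was 0.33, -0.05 and -0.29 in the controls and 2.50, 1.53 and 1.89 after CoCl2, a change of 1.98 (SE 0.33) or 3.93-fold. Both differences left a gap between the groups, of 1.71 and 1.20. Gk minus Hprt was -0.20, -0.19 and 0.39 in the controls and -0.02, 0.31 and 0.18 after CoCl2. Its change of 0.16 (SE 0.22) was smaller than its SE, and its sign turned with slide or scan day as a block (-0.23) and without background subtraction (-0.047). Under quantile normalization the change was 0.54 (SE 0.084), with every CoCl2 array above the controls. With normexp it was -0.23 (SE 0.10), with every CoCl2 array below the controls but only just, CoCl2 replicate 2 being at -0.108 and control 1 at -0.101. Which of the 2 genes rose more thus depended on the processing.

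**Figure D3:**
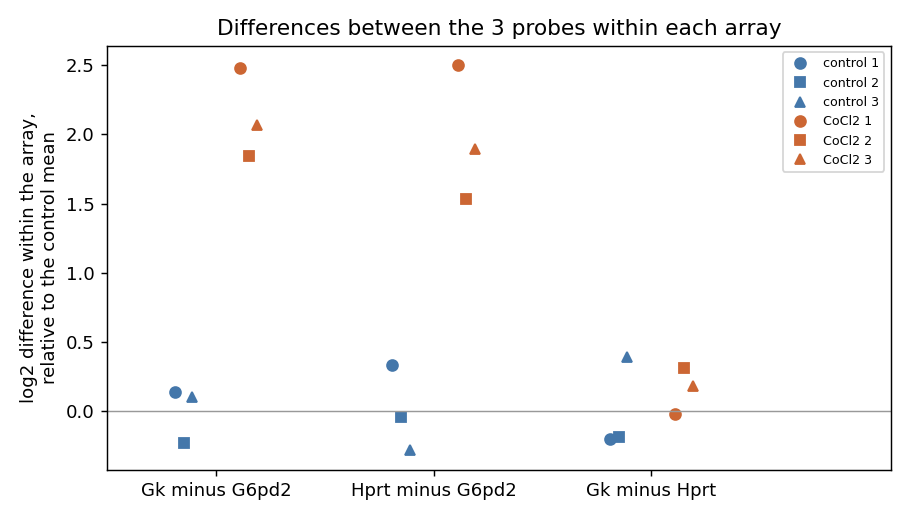
Log2 difference between 2 of the probes within each array, set to 0 at the control mean, for the 3 controls (blue) and 3 CoCl2 arrays (orange), with the replicate number as the symbol. The differences with G6pd2 lie between 1.53 and 2.50 after CoCl2 and between -0.29 and 0.33 in controls, while Gk minus Hprt overlaps between the groups.

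The size of each change depended on the processing, and its direction did not. The 20 alternatives, of scaling, background correction, spot summary, blocks, weights and left-out arrays, were applied 1 at a time and not combined. Over them the log2 fold change ranged from 0.61 to 1.30 for Gk, from -1.30 to -0.83 for G6pd2 and from 0.49 to 1.15 for Hprt. Over the scalings alone it ran from 0.83 to 1.30 for Gk, with the same ranges as above for G6pd2 and Hprt. The median of all tested probes was 0.11 in the 75th-percentile scaling, -0.07 without scaling and 0.40 when each array was scaled to the 11 other tested RefSeq-named probes. A scaling that subtracts a single value per array moves all probes alike, so relative to that median the changes stayed at 0.90 for Gk, -1.23 for G6pd2 and 0.74 for Hprt. Without any scaling, the log2 fold changes were 0.83 (SE 0.30), -1.30 (SE 0.31) and 0.68 (SE 0.28). Gk and G6pd2, 2 of the 3 genes, then passed in limma and Hprt did not, where 33.9% of tested probes passed. Unscaled Hprt was at 15.93, 15.69 and 15.96 in controls 1 to 3 and at 16.59, 16.44 and 16.59 after CoCl2. The SE in limma also draws on the spread of all tested probes, so it is not the scatter of these Hprt values alone.

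Quantile normalization, which forces the same distribution of signals on every array, changed Hprt most. Hprt was at 0.49 (SE 0.12) under it, Gk at 1.03 and G6pd2 at -1.12. Hprt lies in the brightest 10% of the tested probes, whose median log2 fold change over 3484 probes was 0.33 in the 75th-percentile scaling and 0.04 after quantile normalization. For the dimmer probes ranked with Gk the medians were 0.13 and 0.14, and for those ranked with G6pd2 they were 0.10 and 0.11, again each over 3484 probes of similar brightness. Scaled to the 11 other RefSeq-named probes, many of them reference genes, the log2 fold changes were 1.30 for Gk, -0.83 for G6pd2 and 1.15 for Hprt. That panel includes Gusb, the beta-glucuronidase gene, whose log2 fold change was -2.98 in the 75th-percentile scaling. With Gusb left out, a setting added after the data were seen, the values were 1.04, -1.09 and 0.88. The mean log2 fold change of the panel was -0.30 with Gusb and -0.03 over the 10 probes without it.

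**Figure D4:**
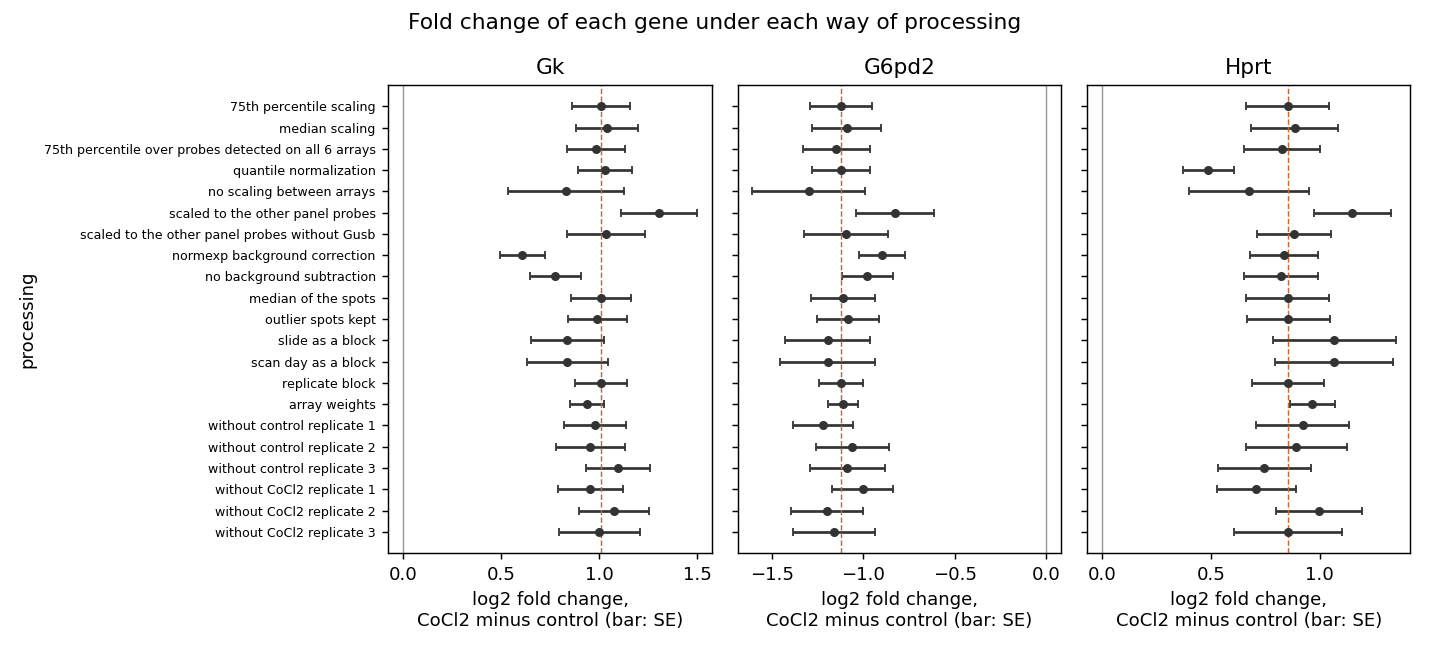
Log2 fold change, CoCl2 minus control, of each gene with its SE under the 75th-percentile scaling (dashed line) and 20 alternatives. Gk is lowest with normexp (0.61), Hprt with quantile normalization (0.49), and no value crosses 0.

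Few named probes offer a comparison with these patterns. Of the pathway lists drawn up for the 3 genes, 15 genes of glycerol metabolism, 10 of the pentose phosphate pathway and 15 of purine salvage and breakdown, only the member itself is named on the array in each. The pathways of these enzymes, G6pdx included, could therefore not be followed beyond them. None of 9 myotube, 3 myoblast, 3 fibroblast or 3 adipocyte markers is named either, so the myotube label was not checked.

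Likeness of pattern was measured as the root mean square (RMS) difference over the 6 arrays after each probe was centred on its own mean, among 17 other gene probes and 361 lincRNA-named probes. The gene probes most like Hprt were the control-type probes for the 3′ ends of Pgk1 (RMS 0.10) and Gapdh (RMS 0.12), both enzymes of glycolysis. Both probes were also bright, like Hprt, with control means of 8.22 and 8.52. Likeness was not measured under quantile normalization, which changed bright probes most. Those most like Gk were the Pgk1 3′ probe (RMS 0.19) and the Gapdh 5′ probe (RMS 0.20). In the scaled levels both had control 3 as the lowest control, while Gk had it as the highest. This contrast depended on the scaling. Before scaling, control 3 was the highest control for both probes and for Gk. G6pd2 had no gene probe as close, the nearest being the genes for the splicing-related protein Nono (RMS 0.39) and the TATA-binding protein Tbp (RMS 0.43). Between the members, the RMS difference was 0.23 for Gk and Hprt, 1.09 for Gk and G6pd2 and 1.04 for Hprt and G6pd2.

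The best matches among the 361 lincRNA-named probes were closer than those among the 17 gene probes for Gk and G6pd2, and not for Hprt. A larger pool can hold a closer match by its size alone, so this does not compare the 2 kinds of probe. For Gk, humanlincRNA1211+_P1 was at RMS 0.069 and mouselincRNA0478+_P1 at 0.11. For G6pd2, MM9LINCRNAEXON11806+_P1 was at 0.087, with levels of 0.09, 0.25 and 0.11 in the controls and -1.18, -0.93 and -0.92 after CoCl2, and mouselincRNA1065-_P1 was at 0.13. For Hprt, humanlincRNA1518-_P1 was at 0.11 and mouselincRNA0544-_P1 at 0.14. Such patterns were frequent over the whole array. Of 34785 other tested probes with a value on every array, 9.06% lay within an RMS of 0.25 of Gk, 6.88% within that of G6pd2 and 12.2% within that of Hprt.

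**Figure D5:**
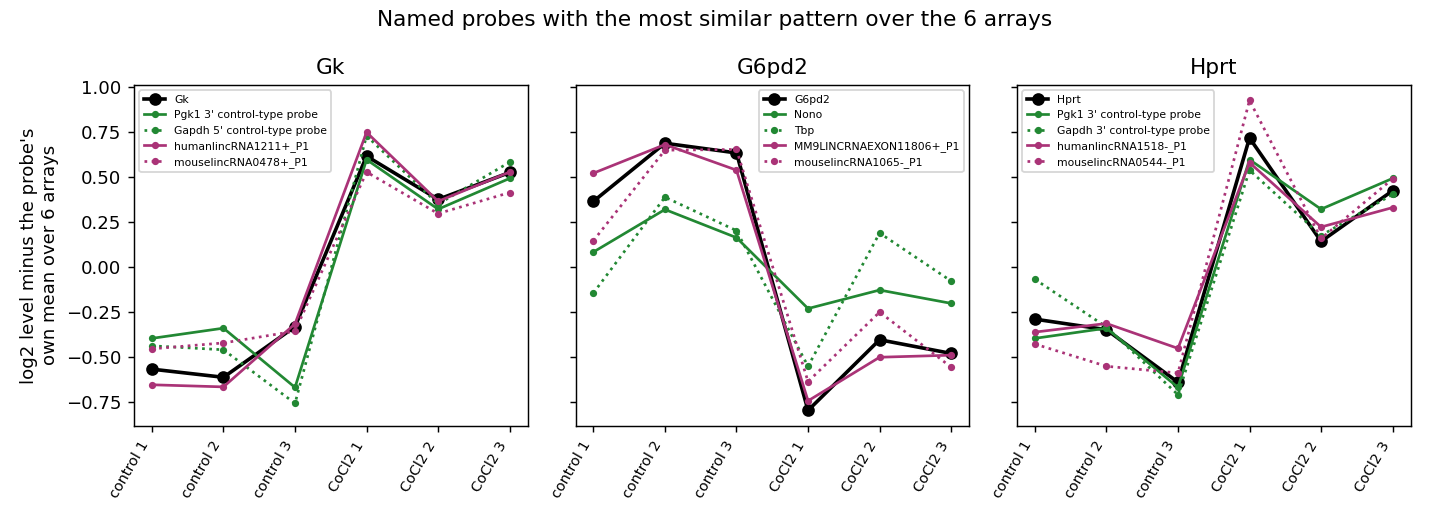
Log2 level minus the probe's own mean over the 6 arrays for each gene (black), the 2 gene probes (green) and the 2 lincRNA-named probes (purple) with the smallest RMS difference from it; lines only join the points of a probe. The Pgk1 and Gapdh 3′ probes lie close to Hprt, while Nono and Tbp change less than G6pd2.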

How the data were processed

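RNA of 3 control and 3 CoCl2 cultures was read on 1 one-colour array each, grouped by the titles in the labels. Ribosomal RNA was depleted and the rest amplified by random priming with the dye Cy3, per the labels' protocols. The spot intensity was made by the authors in Agilent Feature Extraction 11.0.1.1, with background subtraction and spatial detrending per the file headers, and flags of 0 or 1 (other values) for outlier, saturated and well-above-background spots. The authors' deposited value table, on the log2 scale, lists none of the 3 probes and served only for the count over all probes.

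Non-control spots with an outlier flag (57 to 100 per array) were dropped, log2 processed signals of a probe's spots averaged, and each array's 75th percentile over 60915 probes subtracted. Probes well above background on at least 3 arrays (34839; for several spots, on at least 50% of them) were fitted in limma 3.58.1 (R 4.3.3) with Benjamini-Hochberg adjustment. The fit was tested on simulated data. SEs of the 3 genes come from it. SEs of differences within arrays come from the arrays alone. The number of arrays limits the precision.

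The members, lists and tests were chosen with earlier results of these data known. The rule for named genes took the 3 members and, for each, the 2 gene probes and 2 lincRNA-named probes of the smallest RMS difference. Alternatives were other scalings, background corrections, spot summaries, filters, slide, scan day and replicate blocks, array weights and leaving out each array. A panel scaling without Gusb was added after seeing the data. The normexp correction used median spot signals, since mean signals are not among the columns used here. The setting without background subtraction used median spot signals too. Both settings therefore also differ from the processed signal in leaving out its spatial detrending. RefSeq symbols and promoters are those of GRCm38.p6, while the array design is annotated to mm9.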

Additional observations from a re-analysis of the deposited data

How the results depend on the processing

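Of 102 fold changes or differences recomputed, 85 moved by less than 1 SD between replicates, 13 moved further and 4 turned sign, all 4 for Gk minus Hprt. The cause was not tested. The settings counted were not independent. In this balanced design a replicate block returns the unblocked fold changes, and scan day as a block returns the same values as slide.

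Gk was at 0.83 without scaling, 1.30 scaled to the panel, 0.61 with normexp, 0.78 without background subtraction and 0.84 with slide or scan day as a block. G6pd2 was at -0.83 scaled to the panel and -0.90 with normexp. Hprt was at 0.49 under quantile normalization and 1.15 scaled to the panel. Gk minus G6pd2 was 1.503 with normexp and 1.75 without background subtraction. Gk minus Hprt was 0.54 under quantile normalization, -0.23 with normexp, -0.047 without background subtraction and -0.23 with slide or scan day as a block. With slide as a block, which has 2 residual degrees of freedom, 1 of the 3 genes and 5450 of all tested probes passed, against 16580 unblocked. Scan day as a block gave 3 genes and 7510 probes. Array weights gave 26511 probes, in a fit that rests largely on CoCl2 replicate 3, weighted 16.8 against 0.21 to 2.28 for the other arrays. Leaving out 1 array gave 0.954 to 1.095 for Gk, -1.22 to -1.004 for G6pd2, 0.71 to 1.00 for Hprt and 11491 to 17538 probes.

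Same-numbered arrays deviated from their group means with correlations of 0.30, 0.36 and -0.03. The numbers were not taken as pairs, and these mixed values do not settle whether they are. Replicates 1 and 2 of both groups correlated best with their own number, and both arrays numbered 3 did not. The replicate block gave 18765 probes and the same 3 fold changes (1.01, -1.12 and 0.85), with SEs of 0.13, 0.12 and 0.16. The authors' table could not be used for the 3 genes. Gk, with a background-subtracted signal 2.59 to 7.39 times its local background, is the most limited by signal of the 3 genes.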
